A study of Mus musculus with 12 samples.

Results

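The CpGs described here lie in an annotated exon (mm9) and outside the annotated promoters and UTRs of the deposited table. They were chosen by annotation alone: the exon entry was filled, and the promoter, 5′ UTR and 3′ UTR entries were empty. This held for 94146 of 760348 CpGs that had at least 10 reads in each of 12 samples (12.4%), in exons of 10945 gene IDs. By RefSeq biotype, 97.2% of them were in exons of protein-coding genes and 1309 in exons of long noncoding RNAs. Of the exonic CpGs, 8406 lay in an intron of another transcript as well as in an exon.

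Splenic B cells (B220+ CD43-) of naive C57/BL6J mice were labelled with a division dye (CFSE or CTV) and transferred into μMT mice, which lack mature B cells of their own. The hosts were challenged with lipopolysaccharide (LPS), a B cell mitogen. At day 3 the transferred cells were sorted from spleen by division number and profiled by reduced representation bisulfite sequencing (RRBS), which reads methylation at CpGs near the cut sites of MspI and TaqI. Each of the 2 hosts (196 and 197) gave 1 sample of each of 6 fractions. Div0, Div1, Div3 and Div5 had divided 0, 1, 3 and 5 times. Div8neg and Div8pos had divided at least 8 times and were negative or positive for CD138, a surface marker of plasma cells. All 12 samples are labelled as female, 8 weeks old and strain B6.SJL-Ptprca Pepcb/BoyJ, without saying whether this is the donor or the host. Further divisions and CD138 cannot be told apart in Div8pos against Div8neg, because the last gate has no upper limit. How many donors were pooled is not given in the labels, so the spread between the hosts may include both donor and host.

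CpG methylation is copied to the new DNA strand after replication by the maintenance enzyme Dnmt1 with its partner Uhrf1. In mammals most CpGs in gene bodies are methylated, while CpG-rich sequence around start sites is usually free of methylation. Plasma cell formation requires many divisions and is driven by transcription factors such as Blimp-1 (Prdm1).

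The label "outside promoters" held only in part. The file's description defines the promoter as 2500 bp upstream to 500 bp downstream of a start site. The promoter entry was filled for 95.3% of the 102696 CpGs in the upstream stretch but for 21.4% of the 129050 CpGs in the downstream stretch. As a result, 26150 of the exonic CpGs (27.8%) lay in that window, and 67996 lay outside it. The level differed between them: at Div0 the mean was 13.4% inside it and 66.9% outside it. The main values are therefore given for both sets.

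The upstream sequence of genes whose exonic CpGs lay within 500 bp of the start site shows what the low and the high class look like there. RefSeq (GRCm38.p6) windows of 1 chromosome were left out, and so were genes with more than 1 window. A single upstream window of 250 bases remained for 1740 of 2739 genes with at least 3 such CpGs. The median number of CG dinucleotides in the window was 17 in the 1478 genes with an exon level under 20% at Div0, and 7.5 in the 170 genes at 80% or more. Over all 22862 windows kept in this way it was 5. The genes with the most near-start exonic CpGs in the low class were Pdxp (1.20% at Div0 and 1.58% at Div8pos; chr15:78913669-78913918) and Ddx39b (3.19% and 2.19%; chr17:35241496-35241745). In the high class they were Rere (97.8% and 93.7%; chr4:150281666-150281915) and Zdhhc25 (95.9% and 92.7%; chr15:88600052-88600301). These windows lie just upstream of the RefSeq start, all on the plus strand, and may not be those of the start sites in the mm9 annotation. CG dinucleotides are in capitals, and number 20 in Pdxp, 25 in Ddx39b, 16 in Rere and 3 in Zdhhc25.
Pdxp: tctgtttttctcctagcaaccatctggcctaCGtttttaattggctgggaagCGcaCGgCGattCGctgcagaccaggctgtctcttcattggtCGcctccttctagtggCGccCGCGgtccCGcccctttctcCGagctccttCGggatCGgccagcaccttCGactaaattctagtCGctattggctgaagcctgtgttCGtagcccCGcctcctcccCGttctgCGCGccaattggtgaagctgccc
Ddx39b: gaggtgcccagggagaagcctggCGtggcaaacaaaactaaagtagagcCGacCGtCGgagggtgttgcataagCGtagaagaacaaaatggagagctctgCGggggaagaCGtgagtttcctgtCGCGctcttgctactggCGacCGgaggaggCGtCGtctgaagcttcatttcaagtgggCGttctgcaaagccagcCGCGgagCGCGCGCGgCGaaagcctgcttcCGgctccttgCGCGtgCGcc
Rere: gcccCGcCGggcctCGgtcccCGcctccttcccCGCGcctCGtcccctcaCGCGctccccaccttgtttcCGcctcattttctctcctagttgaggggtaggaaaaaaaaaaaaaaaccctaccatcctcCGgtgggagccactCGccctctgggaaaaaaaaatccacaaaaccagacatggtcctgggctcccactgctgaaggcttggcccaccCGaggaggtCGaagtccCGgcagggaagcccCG
Zdhhc25: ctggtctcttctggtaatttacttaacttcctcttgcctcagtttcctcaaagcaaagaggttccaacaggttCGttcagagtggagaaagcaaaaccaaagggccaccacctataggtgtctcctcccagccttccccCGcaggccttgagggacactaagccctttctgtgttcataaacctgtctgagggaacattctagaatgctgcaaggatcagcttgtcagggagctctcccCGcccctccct
The Rere window is CG-rich, while the near-start exonic CpGs assigned to Rere were methylated. Windows and exons were joined by gene symbol, so whether the 2 lie side by side was not tested.

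The reads on exonic CpGs ranged from 2099496 to 6977636 per sample, with a median coverage of 21 to 71 reads per CpG. Libraries of host 197 were deeper than those of host 196 in each fraction, with medians of 45 to 71 reads against 21 to 61. No samples looked like 1 library deposited again: in a chi-square test of coverage, the value per degree of freedom was at least 1.20 for each pair. In Div8neg, the libraries of the hosts went opposite ways at low CpGs: among exonic CpGs under 20% at Div0, the level moved by -0.170 points in host 196 and by 0.750 points in host 197.

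The exonic level was lower in the most divided cells, and lowest in CD138-positive cells. The mean over all 94146 CpGs was 52.2% in host 196 and 51.9% in host 197 at Div0. At Div5 the values were 51.9% and 51.5%, at Div8neg 50.3% and 50.2%, and at Div8pos 48.2% and 47.6%. Div1 and Div3 differed from Div0 of the same host by -0.141 to -0.0274 points. The difference from Div0 was -4.16 points at Div8pos (SD 0.217, n = 2 hosts) and -1.78 points at Div8neg (SD 0.140), and Div8pos minus Div8neg was -2.38 points (SD 0.357). The slope over the 6 ordered fractions was -0.749 points per step (exact permutation test within hosts, two-sided p = 1.5e-05, 518400 arrangements). Without Div8pos, the slope on division number was -0.209 points per division (exact permutation p = 0.00035, 14400 arrangements). For the mean level no pair of fractions was tested on its own, and pairs are given as differences within hosts.

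**Figure D1:**
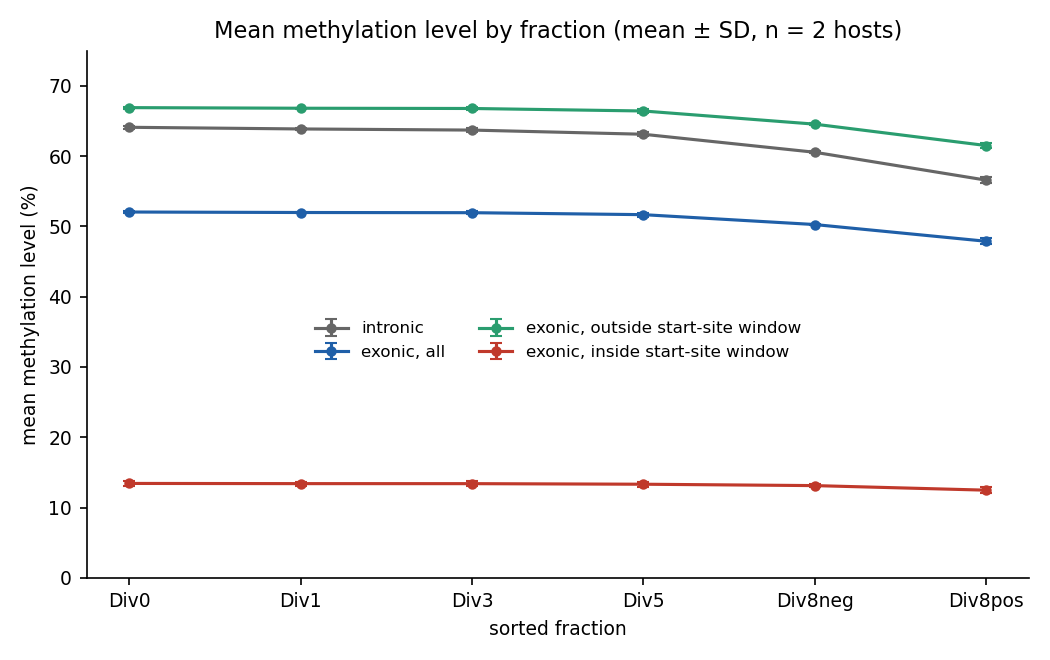
Mean methylation level (%, y axis) in the 6 sorted fractions (x axis), as the mean ± SD of 2 hosts, for all exonic CpGs, those outside and inside the window from 2500 bp upstream to 500 bp downstream of a start site, and intronic CpGs. The exonic mean goes from 52.1% at Div0 to 47.9% at Div8pos, and that of CpGs inside the window from 13.4% to 12.5%.

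Outside the window Div8pos minus Div0 was -5.39 points (SD 0.257), and inside it -0.958 points (SD 0.113). The change was a shift of methylated CpGs into the intermediate class. The share of exonic CpGs at 80% or more went from 48.7% at Div0 to 46.1% at Div8neg and 42.2% at Div8pos. The share from 20 to 80% went from 7.66% to 10.3% and 13.6%. The share under 20% was 43.7% at Div0 and 44.2% at Div8pos. A second deposited table, with a lower coverage requirement, held 81382 further exonic CpGs with reads in all 12 samples. These CpGs, which are not in the first table, differed from Div0 by -2.28 points at Div8neg (SD 0.124) and by -5.06 points at Div8pos (SD 0.392).

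To follow CpGs by their starting level, each was placed by its Div0 level in the other host, so that the level used for placing was never the level followed. Exonic CpGs at 80% or more at Div0 stood at 95.6% and 95.5% (host 196, then host 197) at Div0. They were at 95.5% and 95.4% at Div1, 95.5% and 95.2% at Div3, and 95.02% and 94.7% at Div5. They were at 92.4% and 91.8% at Div8neg, and 88.6% and 88.0% at Div8pos. The Div8neg and Div8pos values lay below those of every earlier fraction in both hosts, and the difference from Div0 was -3.46 points (SD 0.335) and -7.28 points (SD 0.371). For CpGs from 20 to 80% it was -6.73 points at Div8pos (SD 0.0887), and for CpGs under 20% it was -0.207 points (SD 0.0472). In steps of 10 points of Div0 level, the change at Div8pos was -2.02 points at 20 to 30%, -6.01 at 40 to 50%, -10.9 at 70 to 80% and -6.88 at 90 to 100%. The greatest loss was thus at CpGs from 60 to 90%, not at the most methylated ones.

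**Figure D2:**
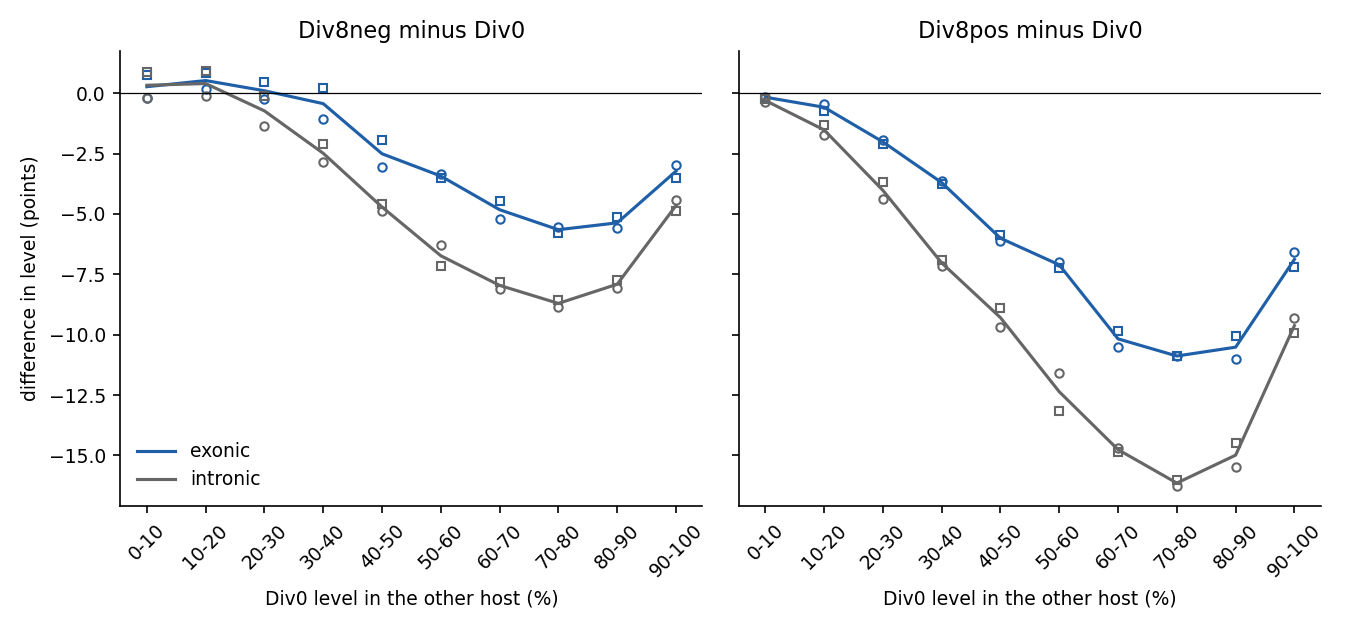
Difference in level from Div0 (points, y axis) for Div8neg (left) and Div8pos (right) by the Div0 level of the CpG in the other host (x axis, %). Lines are means of 2 hosts, circles host 196 and squares host 197. Exonic CpGs (blue) lose less than intronic CpGs (grey) from 20% upwards, with -10.9 against -16.1 points at 70 to 80% for Div8pos.

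Single CpGs were tested with a quasi-binomial model over all 760348 CpGs of the table. A CpG counted as lower or higher at an adjusted p under 0.05 and a difference of 20 points or more between the 2 fraction means. Between Div8pos and Div0, 3000 exonic CpGs were lower (3.19%, beside 6.61% of all CpGs of the table) and 32 were higher (0.0340%, beside 0.0271%). The lower ones were 2789 of those outside the window (4.10%) and 211 of those inside it (0.807%). Of the 53037 exonic CpGs with a Div0 level of at least 20%, which alone could fall by that much, 5.66% were lower, beside 10.8% of all such CpGs and 12.3% of intronic ones. Between Div8neg and Div0, 329 were lower and 44 higher, beside 0.781% and 0.0397% of all CpGs. Between Div8pos and Div8neg, 339 were lower and 3 higher, beside 0.636% and 0.00697%. Between Div5 and Div0, 41 were lower and 3 higher, beside 0.123% and 0.00552%. Between Div3 and Div0, 7 were lower and 2 higher, beside 0.027% and 0.00118%. Between Div1 and Div0 no exonic CpG was called in the quasi-binomial model. Of the 94146 exonic CpGs, 5257 had an unadjusted p under 0.05 there, near the share that this limit gives without any difference.

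The 3000 CpGs lower at Div8pos fell from a median of 93.1% at Div0 to 79.5% at Div8neg and 64.9% at Div8pos, and 218 of them ended under 20%. Of the 329 CpGs lower at Div8neg, 265 were also lower at Div8pos, which is 80.5% of the first list and 8.83% of the second. Both lists use the same Div0 samples. These counts rest on a spread shared by all CpGs: with the spread of each CpG alone no exonic CpG passed in any of these comparisons (11545 had an unadjusted p under 0.05 at Div8pos), and with limma on logit levels 515 were lower at Div8pos. They also rest on the Div0 library of host 197, without which 845 were lower at Div8pos, 45 at Div8neg and 10 at Div5. Without the Div8neg library of host 197, 50 were lower at Div8pos than at Div8neg.

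The level was higher farther from the start site. Over all exonic CpGs, the level at Div8pos was 11.9% within 500 bp, 37.9% at 1 to 2 kb and 75.1% at 5 to 20 kb, and the change from Div0 was -0.891, -3.87 and -6.49 points. Among CpGs at 80% or more at Div0, the change at Div8pos was -7.24 points within 500 bp, -8.00 at 1 to 2 kb, -7.24 at 5 to 20 kb and -6.68 beyond 50 kb. The SD over hosts was 0.271 to 0.524 points over the 7 bins, and the values of neighbouring bins overlapped between the hosts. Of the exonic CpGs at 80% or more, 7.08% were called lower at Div8pos at 1 to 2 kb, 5.55% within 500 bp and 4.13% beyond 50 kb. At matched Div0 level, CpGs within 2 kb minus those beyond 20 kb changed by -0.532 points in host 196 and 0.285 points in host 197 between Div0 and Div8pos. Between Div0 and Div8neg the same contrast changed by -1.02 points in both hosts (SD 0.00395), so the hosts were alike there and opposite at Div8pos. In this contrast the CpGs within 2 kb had a mean of 20.5% and 20.0% at Div0. It thus gives much weight to low CpGs, which can lose little, and does not decide the question for methylated CpGs alone. The slope over the fractions was -0.0850 points per step (exact permutation p = 0.23). Placing CpGs by the Div0 level of the same host gave -0.248 (exact permutation p = 0.037). Along the transcript, cut into 5 equal parts, CpGs at 80% or more changed by -7.71 points in the first and by -6.93 in the last (SD 0.519 and 0.318). In long noncoding RNA exons, 339 and 334 such CpGs in the hosts changed by -9.84 points (SD 0.0273), and those in protein-coding exons by -7.26 (SD 0.367), a difference that was not tested.

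At Div8pos the loss was smaller where more covered CpGs lay nearby. Exonic CpGs at 80% or more with 0 or 1 covered CpGs within 100 bp changed by -9.11 points at Div8pos (SD 0.370), those with 2 to 4 by -6.95, those with 5 to 9 by -5.48, and those with 10 or more by -3.94 (SD 0.0719). The order was the same in both hosts. At Div8neg the changes were -4.23, -3.31, -2.71 and -2.47 points, and the last 2 classes were in the opposite order in host 196. This contrast was tested after these values were seen: CpGs with at least 5 minus CpGs with under 2, at matched Div0 level, changed by 1.29 points in host 196 and 1.54 points in host 197 between Div0 and Div8pos. At Div8neg the contrast itself was -1.06 and -1.78 points, beside -1.36 and -1.79 at Div0. The CpGs with at least 5 had a mean of 26.3% and 25.9% at Div0, so low CpGs, which can lose little, weigh in this contrast too. The slope was 0.219 points per step (exact permutation p = 0.0058). It was no longer past 0.05 when CpGs were placed by the Div0 level of the same host (slope 0.0594) or without either Div0 library (0.171 and 0.122). Without a Div0 library, CpGs of the other host were placed by that host's own Div0 level. The missing library and the change of placing cannot be told apart there.

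**Figure D3:**
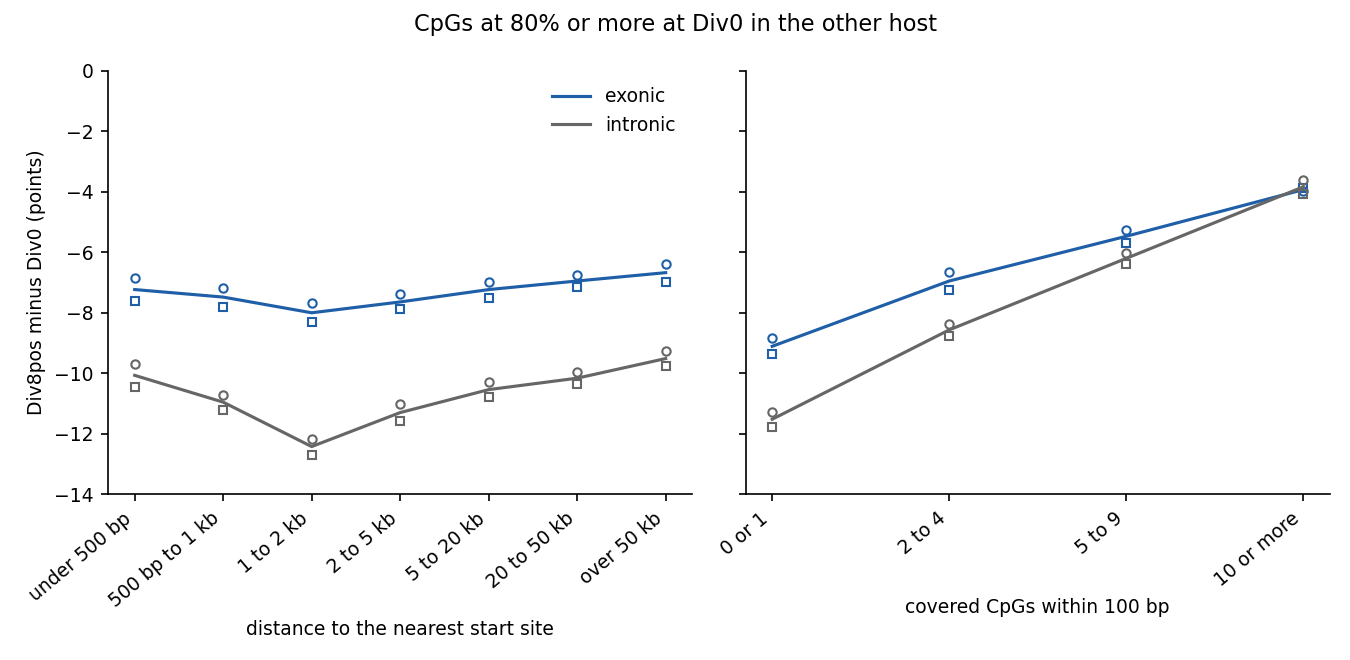
Div8pos minus Div0 (points, y axis) for CpGs at 80% or more at Div0 in the other host, by distance to the nearest start site (left) and by the number of covered CpGs within 100 bp (right). Lines are means of 2 hosts, circles host 196 and squares host 197. Exonic values (blue) stay between -8.00 and -6.68 over distance and go from -9.11 to -3.94 with rising CpG number.

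Exonic CpGs lost less than intronic CpGs, the class most like them. The 231394 intronic CpGs outside exons, promoters and UTRs were at 64.1% at Div0 and changed by -7.52 points at Div8pos (SD 0.197). Intronic CpGs had a median of 2 covered CpGs within 100 bp, and exonic ones 4. Matched on Div0 level, distance and number of nearby CpGs, exonic minus intronic was 0.272 and 0.515 points in the hosts at Div0, 0.623 and 0.808 at Div5, 1.02 and 1.27 at Div8neg, and 1.45 and 1.63 at Div8pos. The difference widened by 1.14 points from Div0 to Div8pos (SD 0.0472, n = 2) and by 0.751 points to Div8neg (SD 0.00796). Its slope was 0.223 points per step (exact permutation p = 3.9e-06, the smallest these arrangements can give). Among CpGs at 80% or more, the unmatched change at Div8pos was -9.11 points in exons and -11.5 in introns with 0 or 1 covered CpGs nearby. With 10 or more it was -3.94 points (SD 0.0719) and -3.85 points (SD 0.338).

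**Figure D4:**
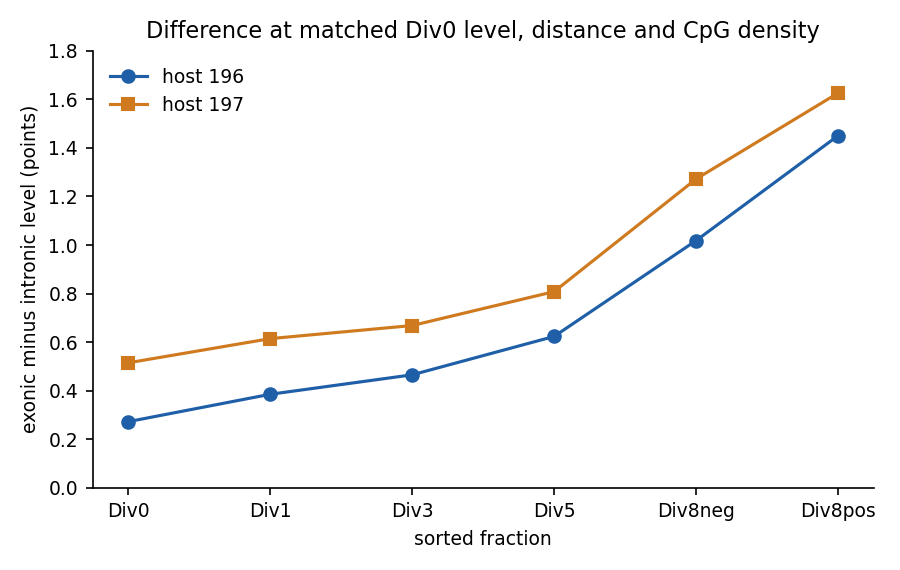
Exonic minus intronic methylation level (points, y axis) in the 6 fractions (x axis) at matched Div0 level, distance to the start site and number of nearby CpGs, with 1 line per host. The difference goes from 0.272 to 1.45 points in host 196 and from 0.515 to 1.63 points in host 197.

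Within genes the exon also lost less, here without matching on Div0 level, distance or number of nearby CpGs. In 3872 genes with exonic and intronic CpGs, the exon lost less than the intron in 2731 (70.5%), with medians of -4.003 and -6.80 points. In the 782 genes where both were at 80% or more at Div0, the exon lost less in 78.8%, with medians of -6.89 and -10.0 points. For exonic CpGs at 80% or more at Div0, the Div8pos change in 1 host was correlated with that of a neighbouring CpG in the other. The correlation was 0.297 over 12421 pairs at most 10 bp apart. It was 0.0714 over 48740 pairs over 1 kb and up to 5000 bp apart. The change at the same CpG correlated by only 0.442 between the hosts, so the values for neighbours are to be read beside it. For introns the values were 0.435 and 0.0811 for neighbours and 0.547 for the same CpG. The values of a pair come from different hosts and share no read, but a CpG can be in several pairs, and the correlations are descriptive.

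Exon levels per gene were tested with limma for 5639 genes with at least 5 exonic CpGs, and called at an adjusted p under 0.05 and 10 points. At Div8pos against Div0, 533 genes fell (9.45%) and 4 rose (0.0709%). At Div8neg against Div0, 63 fell (1.12%) and 9 rose (0.16%), and at Div8pos against Div8neg 115 fell (2.04%) and 4 rose (0.0709%). The median difference over all genes tested was -3.65, -1.42 and -1.91 points in these comparisons. The 533 genes fell in both hosts, and 423 of them were among the 2378 genes at 80% or more at Div0. Their median went from 92.5% at Div0 to 86.3% at Div8neg and 79.0% at Div8pos. At Div5 against Div0, 4 genes fell and none rose (Nfkbia, Zfp146, Unc119 and Cnp). An unadjusted limma p under 0.05 was seen for 323 of the 5639 genes, near the share that this limit gives without any difference.

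Nfkbia had the greatest loss of all genes tested. It encodes IκBα, which holds NF-κB in the cytoplasm and is itself induced by NF-κB after LPS. Its 5 exonic CpGs lay at chr12:56591499-56591637, about 2 kb from the start site, with a median coverage of 75 reads. In hosts 196 and 197 they were at 92.2% and 90.2% at Div0, 81.0% and 76.5% at Div1, 62.0% and 62.0% at Div3, 34.8% and 34.8% at Div5, 22.4% and 23.2% at Div8neg, and 4.97% and 3.75% at Div8pos. Each fraction lay below the one before in both hosts, with no overlap. The difference from Div0 was -56.4 points at Div5, -68.4 at Div8neg and -86.8 at Div8pos (SE 1.37; limma adjusted p = 9.67e-08, 1.74e-08 and 2.08e-09).

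The other genes with the greatest losses at Div8pos followed different time courses. Ndufb10, a subunit of respiratory complex I, had 5 CpGs at chr17:24859678-24859726. They were at 68.2% and 68.0% at Div0, 69.5% and 73.2% at Div1, 70.6% and 63.0% at Div3, 57.8% and 56.6% at Div5, 26.5% and 22.1% at Div8neg, and 5.56% and 6.25% at Div8pos. Ndufb10 was thus below 30% in both late fractions alone (-62.2 points at Div8pos, SE 2.37, limma adjusted p = 1.77e-06). Zfp146, a zinc finger protein gene, had 5 CpGs at chr7:30947418-30947548. They were at 82.9% and 86.8% at Div0, 91.9% and 83.8% at Div1, 65.7% and 60.04% at Div3, 52.8% and 50.2% at Div5, 46.3% and 48.6% at Div8neg, and 29.1% and 28.0% at Div8pos. Zfp146 was below its Div0 values from Div3 on in both hosts. Skil, a repressor of Smad signalling, had 6 CpGs at chr3:30996441-30996636. They were at 97.9% and 93.1% at Div0, 97.7% and 97.3% at Div1, 98.0% and 97.9% at Div3, 84.1% and 96.3% at Div5, 74.9% and 73.9% at Div8neg, and 47.2% and 25.2% at Div8pos. Skil differed between Div8pos and Div8neg by -38.2 points (SE 6.11, limma adjusted p = 0.00524), and its hosts lay furthest apart at Div8pos.

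Of the remaining genes with the greatest losses, Unc119, a lipid-binding trafficking chaperone, went from 81.5% at Div0 to 58.4% at Div5 and 37.3% at Div8pos. Trim41, a ubiquitin ligase, and Rpl6, a ribosomal protein, were at 92.3% and 91.8% at Div5 and at 52.4% and 54.7% at Div8pos. Cxcr5, the receptor that guides B cells to the follicle, had 7 CpGs that went from 86.9% at Div0 to 72.8% at Div8neg and 51.7% at Div8pos. Cnp, Xrcc1 (a DNA single-strand break repair scaffold), Akr7a5 and Ppm1m ended between 51.3% and 65.1% at Div8pos. Between Div8pos and Div8neg the leading genes also included Gpnmb, at 82.6% and then 54.3%, and Nipbl, which loads cohesin, at 92.9% and then 69.6%. At Div8neg they differed from Div0 by -2.15 and -4.82 points, which did not pass.

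Gains were few and smaller. Stx11, a syntaxin of granule release, was at 19.8% and 22.3% at Div0, 40% and 39.1% at Div8neg, and 36.3% and 38.5% at Div8pos. Kcnj14, a potassium channel, and Egr3, an immediate early transcription factor, rose by 10.3 and 10.0 points at Div8pos, just past the size limit. Without the Div8pos library of host 196, or without the Div0 library of host 197, neither passed it (8.02 and 9.46 points for Kcnj14, 8.84 and 8.81 for Egr3).

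Several genes were called higher at Div8neg but not at Div8pos. Cxcr4, which guides plasma cells to the bone marrow, was at 61.5% and 62.2% at Div0, 73.4% and 73.6% at Div3, 72.1% and 76.5% at Div8neg, and 64.0% and 65.4% at Div8pos. Its exon level at Div8pos differed by -9.57 points from Div8neg (limma adjusted p = 0.00442) and by 2.85 points from Div0 (limma adjusted p = 0.143). Egr2, Tspan17, Sardh and Ppp2r5b were also higher at Div8neg, by 10.7 to 12.6 points. At Div8pos they differed from Div0 by -3.21 to 4.70 points with limma adjusted p of 0.180 or more. Between Div8pos and Div8neg, Tspan17 and Sardh were called lower (-10.7 and -14.3 points, limma adjusted p = 0.0147 and 0.00628). Egr2 (-7.92 points, limma adjusted p = 0.0631), Ppp2r5b (-9.05, 0.0153) and Cxcr4 did not meet both limits, so a difference between the late fractions was not called for them. Egr2, Tspan17, Sardh and Ppp2r5b each lost the Div8neg call when the Div0 library of host 196 was left out, or when reads were summed over the gene. Nfkbil1, an NF-κB inhibitor-like gene, was low at Div8neg (62.7% and 65.7%) between 80.9% and 80.5% at Div0 and 77.2% and 78.6% at Div8pos. Its call was lost without the Div8neg library of host 196 or the Div8pos library of host 197. Kcnj14, Blcap and Btnl9 were also higher at Div8pos than at Div8neg. Btnl9 was not called with the host as a block (limma adjusted p = 0.0514) or without any of the 4 libraries compared. None of the 6 CpGs assigned to Blcap lay in an exon of Blcap itself.

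**Figure D5:**
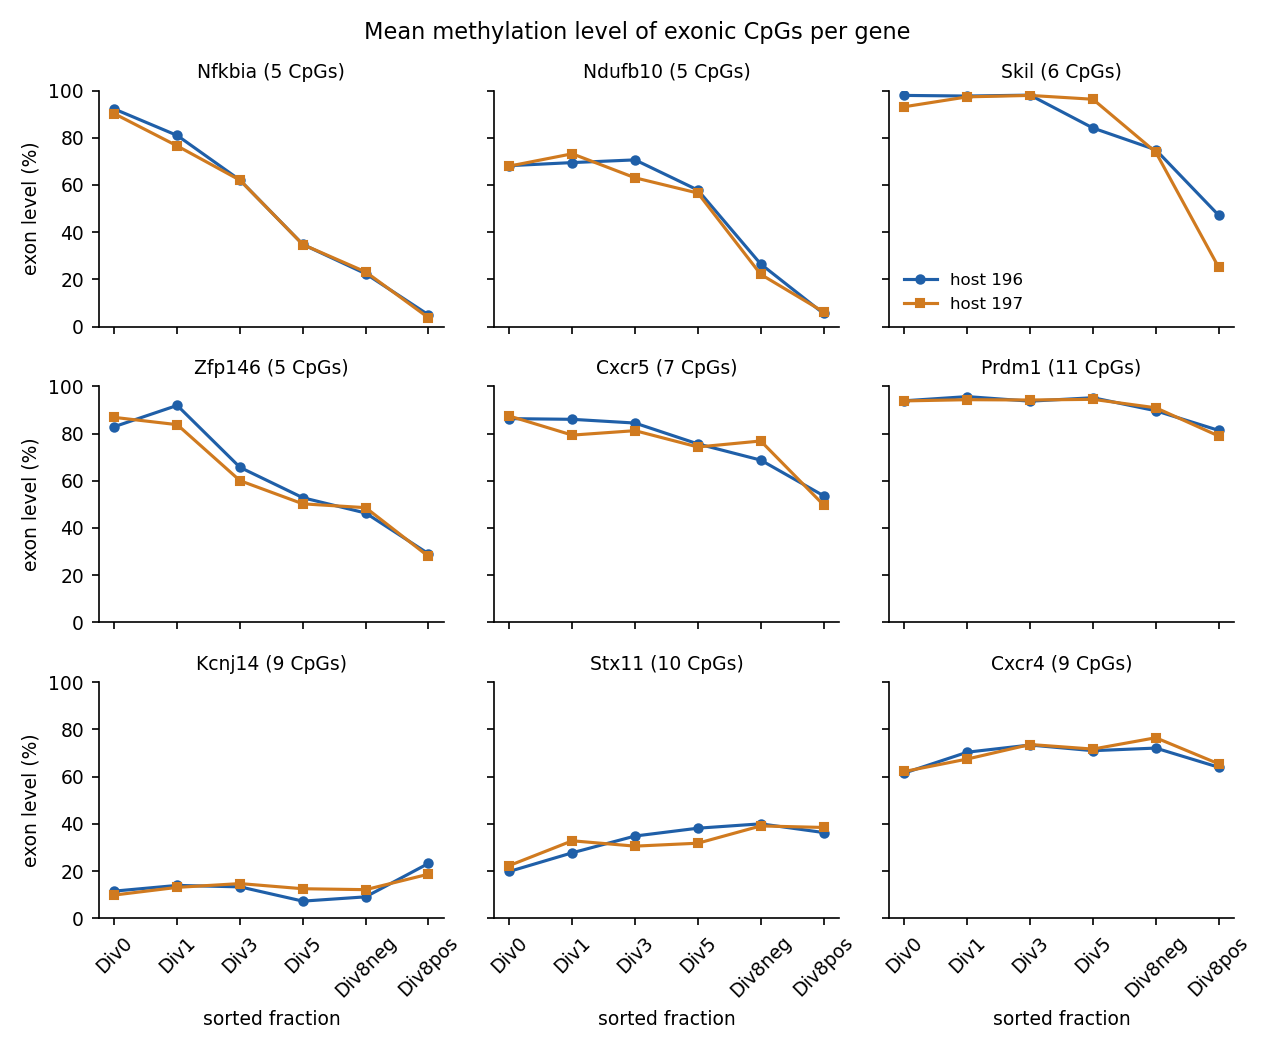
Mean methylation level of the exonic CpGs of 9 genes (%, y axis) in the 6 fractions (x axis), with 1 line per host. Nfkbia falls in each fraction from 91.2% to 4.36%, Ndufb10 is lowest at Div8neg (24.3%) and Div8pos (5.90%), and Cxcr4 is higher at Div8neg (74.3%) than at Div0 (61.9%) and Div8pos (64.7%).

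Runs of at least 3 called CpGs, each at most 500 bp from the next, numbered 151 lower and 2 higher at Div8pos against Div0, holding 601 and 7 CpGs. No count of runs over all CpGs or introns is set beside these. Of exonic CpGs, 48.6% had 5 or more covered CpGs within 100 bp, against 20.2% of intronic ones. The number of runs therefore does not compare exons with other CpGs. The run with the most CpGs was in Cnp, with 18 of 19 exonic CpGs called at chr11:100437687-100438056. Over those 19 it was at 92.2% and 89.2% at Div0 and at 58.7% and 54.0% at Div8pos. Irf2bpl held 14 called CpGs of 29, Csrnp1 10 of 12, Mfhas1 10 of 29, Ltbp3 9 of 12, Snx20 9 of 39 and Runx3, a lymphocyte transcription factor, 9 of 9. The Runx3 run (chr4:134711247-134711350) stood between 87.5% and 94.5% from Div0 to Div5, then at 62.6% and 51.01% at Div8neg and 50.6% and 40.8% at Div8pos. The higher runs were in Egr3 and Cd93, a receptor kept on long-lived plasma cells. The 3 Cd93 CpGs went from 10.9% and 10.6% at Div0 to 43.6% and 36.1% at Div5 and 52.4% and 44.5% at Div8pos.

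At Div8neg against Div0 there were 19 lower and 2 higher runs, led by Runx3, Ryr1 (the calcium release channel of muscle) and Nfkbia. The 8 CpGs of Ryr1 did not follow the order of the fractions: they were at 53.8% and 64.3% at Div8neg and at 79.3% and 70.2% at Div8pos. A run of 3 CpGs in Ret, a receptor tyrosine kinase, was higher at Div8neg mostly through 1 library, with 18.6% in host 196 and 49.9% in host 197, beside 3.92% and 7.44% at Div0. Between Div8pos and Div8neg the 13 lower runs were led by Csrnp1, Skil and Gpnmb. In Brip1, a DNA helicase, 4 CpGs were at 73.3% and 70.5% at Div8neg and at 21.8% and 14.8% at Div8pos.

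The CpGs called in early fractions are given by name after their values were seen. The 7 lower at Div3 were in Nfkbia (2), Zfp146 (2), Myo3b (2) and Cflar (1), which encodes the caspase-8 inhibitor c-FLIP. The Cflar CpG was at 53.8% and 67.9% at Div0, 22.2% and 25.4% at Div1, 6.25% and 4.17% at Div3, and 0% and 2.22% at Div8pos. The CpGs higher at Div3 were 1 in Tnfrsf10b, a TRAIL receptor, and 1 in Fam46b. The 41 lower at Div5 carried 29 gene symbols, among them Ikzf1, Pou2f2, Il10, Nod1, Pik3cg, Socs2 and Lmna. The CpGs higher at Div5 were 1 each in Dmrt2, Dnaaf5 and Rassf4. Those higher at Div8pos than at Div8neg were 1 each in Irx2, Klf11 and Marc1.

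Gene lists for this setting are given by counts beside the 533 lower and 4 higher of 5639 genes tested, with a median change of -3.65 points at Div8pos. The 5639 include 1840 genes under 20% at Div0, which had little to lose. Of the 2378 genes at 80% or more, 423 fell. The median Div0 level was 60.9% over all genes tested. It was 93.7% in the Toll-like receptor and NF-κB list, 95.6% in DNA methylation machinery, 88.1% in collagen and 96.1% in Zfp genes. Those 4 lists are thus better read beside the 423 of 2378. Of 9 measured plasma cell genes 1 fell, Prdm1, whose 11 CpGs were at 93.9% and 93.8% at Div0, 89.7% and 90.9% at Div8neg, and 81.4% and 79.0% at Div8pos. The list's median was -3.06 points. Of 11 B cell identity genes 2 fell (median -3.87): Cd37, a B cell tetraspanin, by 19.9 points, and Syk, the kinase downstream of the B cell receptor, by 14.6 points. Of 14 Toll-like receptor and NF-κB genes 2 fell (median -6.20), Nfkbia and Tlr3. Tlr3 fell by 10.5 points, and its difference was -7.45 points without the Div8pos library of host 196. The other 12 were not called. Of the NF-κB subunits, Nfkb1 was at -7.14, Rela at -6.47 and Relb at -3.36 points, and of their inhibitors and kinases Nfkbib was at -5.92 and Ikbkb at -4.32.

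None of 12 measured genes in the list of DNA methylation machinery passed (median -4.87). The 12 also hold the chromatin regulators Eed, Suz12, Ehmt2 and Trim28, and Dnmt1 is not among them. Uhrf1 and Tet1 came nearest to the size limit, at -9.39 and -9.38 points, and Mbd3 differed by 0.0428 points. Of 25 collagen genes 9 fell (median -7.01), with Col24a1 at -15.0 and Col9a2 at -13.7 points. Of 96 zinc finger genes named Zfp 6 fell (median -3.95). Exons already low at Div0 moved little: none of 28 Hox genes (median level 6.07% at Div0) and none of 11 replication-dependent histone genes (1.59%) passed, with median changes of -0.417 and -0.683 points.

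Markers of other cell types were checked on the same CpGs. Exonic CpGs were covered in 6 of 8 T cell, 5 of 7 myeloid, 3 of 5 NK cell and 3 of 5 erythroid marker genes. At Div0, 5 of the T cell genes stood at 81.5 to 99.3%, and Cd3d, a CD3 subunit of the T cell receptor complex, at 2.19%. Of the myeloid genes 4 stood at 94.4 to 100% and Spi1, which B cells also express, at 35.2%. The NK cell genes stood at 90.3 to 95.9%, and the erythroid genes Klf1, Slc4a1 and Epor at 46.8%, 46.8% and 3.40%. B cell markers were methylated there too, with Pax5 at 92.5% and Cd22 at 62.8%, so exon levels did not separate B cell markers from the others. Whether other spleen cells were among the sorted cells was not tested.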

How the data were processed

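RRBS reads were processed by the submitters with Bismark and Bowtie2 on mm9, per the submitters' processing notes, whose versions no source used here gives. The authors deposited methylated and unmethylated read counts per CpG and sample, with the level as a fraction, for CpGs with at least 10 reads in every sample. Levels are given here as percent, computed from the deposited counts.

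CpGs were tested with a quasi-binomial logistic model (fraction as term) on all 12 samples. The dispersion was moderated with limma 3.58.1 (R 4.3.3), shared by all CpGs at 1.16, and Benjamini-Hochberg adjustment ran over 760348 CpGs. Exon levels per gene (mean of at least 5 exonic CpGs within 50 kb of a start site) were tested with limma. Single values were compared with all orders of the fraction labels inside each host by an exact permutation test in Python 3.11.15. The tests were checked on simulated data. The simulated CpG counts had the same setting of extra spread for all CpGs, so this check does not cover CpGs that differ in spread. Fractions of 1 host come from the same animal, per the labels, and are paired by host. Deviations of samples of the same host correlated by -0.0229 to 0.0176 over 10892 CpGs (15 pairs of fractions). PCR reads carry no molecular identifiers, so p-values treat reads as molecules. The quasi-binomial p-value of a CpG rests on its reads and the spread shared by all CpGs, not on its own spread between hosts. In the limma tests of genes, the spread was pooled over all fractions. With 2 samples in a group, no p-value covers hosts beyond these 2.

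Genes named were the 12 (Div8pos against Div0) or 8 lower and up to 6 higher with the greatest difference, the runs with the most CpGs, and the called members of 4 gene lists. Brip1, the collagen genes and the list members named without a call were chosen after their values were seen. Members and lists were chosen with earlier results of these data known. Alternatives covered coverage of at least 20 reads, other size limits, other tests, the host as a block, and each library left out. Some genes that met the rule are not reported here. RNA data of the study were not analysed here.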

Additional observations from a re-analysis of the deposited data

How the results depend on the processing

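The mean slope and the exonic minus intronic slope kept their direction and passed the threshold in every alternative run, with -0.838 to -0.603 and 0.202 to 0.273 points per step over libraries left out. The near minus far slope passed with the Div0 level of the same host (-0.248) and without the Div8pos library of host 197 (range over libraries -0.214 to -0.0428). The contrast by nearby CpGs lost its call with the same host's level (0.0594) and without either Div0 library (range 0.122 to 0.252). In every matched contrast, leaving out a Div0 library also meant that the other host was placed by its own Div0 level. Using exonic CpGs outside the window around start sites alone, a choice made after seeing the data, gave slopes of -0.975, 0.288 and 0.341 (mean, exonic minus intronic, nearby CpGs), and the second table gave -0.920.

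Counts of exonic CpGs are given as lower and higher at Div8pos against Div0, Div8neg against Div0, Div8pos against Div8neg, and Div5 against Div0. A size limit of 10 points gave 8505 and 95, 594 and 70, and 514 and 9. At least 20 reads, which leaves fewer CpGs, gave 921 and 13, 132 and 21, 151 and 1, and 25 and 1. The dispersion of each CpG alone gave 0 in each direction and comparison, with 11545, 3699, 3592 and 1362 exonic CpGs at an unadjusted p under 0.05. Limma on logit levels gave 515 and 0 in the first comparison and 0 in the others. The cause of these changes was not tested. Leaving out 1 library gave 845 to 3255 and 4 to 40, 45 to 321 and 1 to 43, 50 to 295 and 2 to 5, and 10 to 35 and 1 to 1. The lowest counts of lower CpGs came without the Div0 library of host 197 in the comparisons with Div0, and without the Div8neg library of host 197 for Div8pos against Div8neg (50). Div8neg against Div0 also dropped to 99 without the Div8neg library of host 197, Div8pos against Div8neg to 83 and 163 without the Div8pos library of host 197 and the Div8neg library of host 196, and Div5 against Div0 to 11 without the Div5 library of host 197.

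For exon levels per gene, in the first 3 comparisons, at least 10 CpGs per gene gave 186 and 2, 15 and 1, and 27 and 2, with fewer genes tested. At least 3 CpGs gave 976, 138 and 241 lower, and 15 higher at Div8neg against Div0. A size limit of 20 points gave 31 and 0, 5 and 0, and 7 and 0. Summed reads gave 5 higher at Div8neg against Div0. Leaving out 1 library gave 496 to 599 and 2 to 13, 35 to 81 and 5 to 12, and 103 to 160 and 2 to 8. The lowest count of lower genes at Div8neg (35) came without the Div0 library of host 196. Taking the gene from the ID of the exon gave 536, 66 and 111 lower. The host as replicate block gave 2933 CpGs and 529 genes lower at Div8pos against Div0 and changed no count by over 1.5 times; of the named genes it ended the call of Btnl9 (limma adjusted p = 0.0514). Of 422 values of named genes under an alternative, 368 kept direction and call, 54 lost the call and 0 changed direction.

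The limits are 2 hosts per fraction, median coverages of 21 to 71 reads, and levels at CpGs near MspI and TaqI sites, so other exonic CpGs were not measured.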
